A study of Mus musculus with 20 samples.

Results

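The genes described are 10 markers of macrophages and other myeloid cells, namely *Adgre1*, *Cd68*, *Csf1r*, *Cd14*, *Itgam*, *Itgb2*, *Chil3*, *Lyz2*, *Mrc1* and *Cd163*, out of 54838 genes listed in each count table. They were chosen by symbol and matched to their Ensembl identifiers, and measured values were used to set *Chil3* and *Itgb2* against the pan-macrophage genes *Adgre1*, *Cd68*, *Csf1r* and *Mrc1*. Ovaries of 20 female mice aged 77 days were profiled by 3' mRNA-Seq, with 5 mice each of the high-fertility line FL1 and the line ctrl (genotype WT in the labels) in estrus, and 5 of each line in diestrus. FL1 and ctrl are outbred lines that descend from the same crossbred stock, FL1 after long-term selection for litter performance and ctrl without selection under rotational mating, so that selection cannot be told apart from drift between the lines. The ovaries had been freed of fat, tunica albuginea and oviduct. Stage was read from vaginal smears, with only cornified cells in estrus and only leucocytes in diestrus.

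Macrophages are phagocytes that take up dying cells, lipid and matrix. They are among the commonest leucocytes of the ovary, where they lie in the stroma, gather around ovulating follicles and clear cells from atretic follicles and regressing corpora lutea. They depend on signals through the CSF1 receptor, and their gene expression shifts with the cytokines and the debris they meet. In whole-ovary RNA, fewer cells of a type and less RNA per cell cannot be told apart.

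In both stages, the line difference varied in sign and size among the markers. This is a description, as *Chil3* and *Itgb2* were set apart on measured values and no gene was tested against another. *Lyz2* was stronger expressed in FL1 than in ctrl in estrus and in diestrus. *Chil3* had more summed counts in FL1 in both stages, at low counts in diestrus. Its line difference was not shown to differ between the stages. *Itgb2* and *Cd68* lay higher in all FL1 libraries than in all ctrl libraries in diestrus. The receptors *Adgre1*, *Csf1r* and *Mrc1* had lower means in FL1 in both stages, but none of them passed the test. No member was called lower in FL1.

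The libraries held 5991223 to 10352718 counts (median 6957533), and 17484 to 19737 genes had at least 1 count. The members ranged from 114 counts over all 20 libraries for *Cd163* to 26317 for *Lyz2*. Ovarian cell markers were present throughout, with a summed level of 7 granulosa cell genes of 1262 to 3864 CPM per library, although the granulosa gene *Amh* had group means of 0.0616 to 0.126 CPM. CPM are counts per library divided by its TMM-adjusted depth and set to an equal depth for all. A difference was called at an adjusted p of at most 0.05 in edgeR's quasi-likelihood test over all genes tested, log2FC is FL1 over ctrl or estrus over diestrus, and values are mean ± SD with n = 5 per group. As *Chil3* and *Itgb2* were singled out on measured values, their differences are given as a description without a p-value. The other p-values are not independent of the choice of the genes either.

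Transcription of a gene starts at its promoter, and 6 of the 10 genes had an entry in the RefSeq promoter table used (GRCm38.p6), *Cd68*, *Itgam*, *Chil3*, *Lyz2*, *Mrc1* and *Cd163*. The 250 bases upstream of the start in that table are printed for *Chil3* and *Cd68*, which differed between the lines, and for *Itgam* and *Mrc1*, which did not pass the test, all 5′ to 3′ on the gene's strand. *Lyz2*, which differed too, is not printed. In the annotation used for the counts, the *Cd68* window does not reach the gene's edge at 69666153. The *Mrc1* window runs past the gene's start at 14229392. Capitals mark GAGGAA or its reverse complement TTCCTC, the core bound by the myeloid factor PU.1, and TTGCNNAA or its reverse complement TTNNGCAA, letters of C/EBP sites, without overlap between them.
Chil3 (chr3:106167565-106167814, minus strand): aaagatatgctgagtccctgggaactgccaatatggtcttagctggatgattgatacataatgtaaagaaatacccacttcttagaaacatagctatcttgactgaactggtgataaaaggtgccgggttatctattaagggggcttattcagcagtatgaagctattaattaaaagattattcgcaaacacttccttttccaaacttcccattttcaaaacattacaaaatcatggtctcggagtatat
Cd68 (chr11:69666171-69666420, minus strand): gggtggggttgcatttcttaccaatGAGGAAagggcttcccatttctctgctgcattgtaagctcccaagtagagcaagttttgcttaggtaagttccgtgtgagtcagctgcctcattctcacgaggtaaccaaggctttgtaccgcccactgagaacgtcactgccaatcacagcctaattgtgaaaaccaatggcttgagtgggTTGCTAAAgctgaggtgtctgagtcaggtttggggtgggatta
Itgam (chr7:128062390-128062639, plus strand): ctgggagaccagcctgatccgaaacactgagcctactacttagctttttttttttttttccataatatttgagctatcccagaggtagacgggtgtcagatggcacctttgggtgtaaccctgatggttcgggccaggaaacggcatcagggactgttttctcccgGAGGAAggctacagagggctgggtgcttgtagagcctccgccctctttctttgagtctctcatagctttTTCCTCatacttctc
Mrc1 (chr2:14229164-14229413, plus strand): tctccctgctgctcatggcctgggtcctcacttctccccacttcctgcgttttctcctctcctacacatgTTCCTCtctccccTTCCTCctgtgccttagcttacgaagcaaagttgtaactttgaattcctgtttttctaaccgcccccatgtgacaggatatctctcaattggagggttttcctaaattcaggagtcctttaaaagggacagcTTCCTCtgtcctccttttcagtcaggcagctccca

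GAGGAA was found on either strand in 3 of the 6 member promoters, those of *Cd68*, *Itgam* and *Mrc1*, and in 23.3% of all 32851 promoters of the same length. *Mrc1* held it at 3 places and *Itgam* at 2. TTGCNNAA was found in 1 of the 6, that of *Cd68*, and in 9.56% of all promoters. Neither was found in the windows of *Chil3*, *Lyz2* and *Cd163*, which says only that these letters are not in these bases. The matches are a description of the sequence and were not tested for binding.

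Of the pan-macrophage genes, *Adgre1* (chromosome 17, 57358691-57483527, GRCm38) encodes the adhesion receptor that defines most tissue macrophages of the mouse. Its level in ctrl libraries 1 to 5 was 12.1, 10.6, 15.3, 15 and 13.04 CPM in estrus and 17.1, 9.74, 12.2, 9.72 and 18.9 CPM in diestrus. In FL1 it was 8.54, 11.4, 9.24, 7.99 and 12.2 CPM in estrus and 8.46, 9.83, 10.4, 8.37 and 15.9 CPM in diestrus. The lines overlapped in both stages, and the differences did not pass the test in estrus (log2FC -0.42, SE 0.18, adjusted p = 0.280) or in diestrus (log2FC -0.37, SE 0.24, adjusted p = 0.468). FL1 replicate 5 in diestrus stood above the other 4 libraries of its group.

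*Csf1r* encodes the receptor for CSF1 and IL-34, on which the survival of macrophages depends. It reached 20.9, 15.9, 40.1, 34.6 and 33.6 CPM in ctrl in estrus and 17.4, 18.0, 19.95, 15.4 and 24.3 CPM in FL1 in estrus. In diestrus it was at 28.7, 34.1, 32.4, 18.1 and 33.7 CPM in ctrl and 22.7, 18.7, 22.1, 17.6 and 20.4 CPM in FL1. In estrus 3 ctrl libraries lay above all FL1 libraries and 2 within their range, and in diestrus only ctrl replicate 4 lay within the FL1 range. The differences did not pass the test in estrus (log2FC -0.61, SE 0.23, adjusted p = 0.204) or diestrus (log2FC -0.54, SE 0.16, adjusted p = 0.0848). Without ctrl replicate 4 the diestrus difference did pass (log2FC -0.67, adjusted p = 0.00845), as it did with DESeq2 (adjusted p = 0.0474). *Csf1r* overlaps *Hmgxb3* on the opposite strand and *Mir6983* on its own, and the strand setting of the counting is not given in the sources used here.

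*Mrc1* encodes the mannose receptor, an endocytic receptor of many resident macrophages. Its level was 20.9 ± 6.41 CPM in ctrl and 16.6 ± 2.85 CPM in FL1 in estrus, and 21.2 ± 6.64 CPM in ctrl and 16.6 ± 3.80 CPM in FL1 in diestrus. The ranges overlapped in both stages, and neither difference passed the test (estrus log2FC -0.34, SE 0.21, adjusted p = 0.476, and diestrus log2FC -0.36, SE 0.22, adjusted p = 0.425). *Mir511* lies inside the gene.

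*Cd68* (chromosome 11, 69664213-69666153) encodes a glycoprotein of lysosomes that is abundant in phagocytes. It was at 11.1, 11.2, 11.4, 9.56 and 9.24 CPM in ctrl in diestrus and at 20.1, 16.3, 11.8, 15.2 and 27.7 CPM in FL1 in diestrus, where the groups did not overlap. In estrus it was at 14.0, 14.1, 21.2, 17.5 and 26.4 CPM in ctrl and 21.8, 17.4, 23.1, 35.5 and 25.4 CPM in FL1, where they did. The diestrus difference was called (log2FC 0.79, SE 0.21, adjusted p = 0.0467) and the estrus difference was not (log2FC 0.40, SE 0.22, adjusted p = 0.395). The diestrus call was close to the threshold, as it held in only 1 of the 10 fits that left out a library, without FL1 replicate 3, and the adjusted p in the other 9 fits was 0.0589 to 0.107. It was lost with limma-voom (adjusted p = 0.104) and in a fit of all 20 libraries (adjusted p = 0.0522), and all these fits had FL1 higher.

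*Lyz2* (chromosome 10, 117277331-117282321) encodes lysozyme, an enzyme that breaks down bacterial walls and is made by macrophages and granulocytes. Its level in estrus was 122, 123, 162, 133 and 93.2 CPM in ctrl and 236, 290, 162, 399 and 276 CPM in FL1. In diestrus it was 71.2, 85.0, 70.3, 81.9 and 162 CPM in ctrl and 292, 179, 168, 122 and 406 CPM in FL1. In each stage FL1 was higher in 24 of 25 pairings of libraries across the lines, with an overlap between ctrl replicate 3 and FL1 replicate 3 in estrus, and between ctrl replicate 5 and FL1 replicate 4 in diestrus. *Lyz2* was called in estrus (log2FC 1.10, SE 0.20, adjusted p = 0.0107) and in diestrus (log2FC 1.31, SE 0.30, adjusted p = 0.0250). The estrus call held whichever library was left out, while the diestrus call was lost without ctrl replicate 2, 3 or 4 or FL1 replicate 1 or 5 (adjusted p 0.0564 to 0.0651). Its near-identical copy *Lyz1* had 0 to 18 counts per library, and adding them left both calls in place.

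*Itgb2* and *Itgam* encode the subunits of the complement receptor integrin of myeloid cells. *Itgb2* gives the beta chain shared by all integrins of its family on leucocytes, *Itgam* 1 of their alpha chains. *Itgb2* (chromosome 10, 77530252-77565708) was at 2.55, 0.829, 6.67, 3.68 and 1.59 CPM in ctrl and 4.42, 11.4, 3.47, 9.76 and 10.4 CPM in FL1 in estrus. In diestrus it was at 3.88, 2.33, 4.06, 1.81 and 2.46 CPM in ctrl and 7.75, 8.78, 7.26, 5.67 and 12.5 CPM in FL1, and the lowest FL1 library lay above the highest ctrl library. The difference was log2FC 1.32, SE 0.47 in estrus and log2FC 1.5, SE 0.29 in diestrus, given as a description.

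*Itgam*, like *Itgb2*, had a positive log2FC in both stages, with smaller values. The 2 genes were not tested against each other. It was at 1.88, 1.99, 6.28, 5.09 and 5.11 CPM in ctrl and 2.50, 5.56, 3.57, 5.47 and 4.07 CPM in FL1 in estrus, and at 3.91 ± 1.2 CPM in ctrl and 5.86 ± 1.07 CPM in FL1 in diestrus. Ctrl replicates 1 and 2 in estrus were the lowest of all 20 libraries. FL1 was higher in 14 of 25 pairs of libraries in estrus and in 22 of 25 in diestrus. No difference between the lines was called in estrus (log2FC 0.04, SE 0.37, adjusted p = 0.972) or in diestrus (log2FC 0.58, SE 0.26, adjusted p = 0.268). The sign in estrus turned in 4 of 10 fits without a library. The readthrough gene *Gm49368* shares the 3' end of *Itgam* and had 0 or 1 count per library.

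*Chil3* (chromosome 3, 106147554-106167564) encodes a chitinase-like lectin without chitinase activity, secreted by macrophages under type 2 cytokines and found in neutrophils too. It had 1, 2, 2, 2 and 3 counts in the ctrl libraries and 30, 36, 32, 55 and 60 counts in the FL1 libraries of estrus. In diestrus it had 0, 0, 0, 0 and 5 counts in ctrl and 7, 2, 3, 16 and 12 counts in FL1. As normalised levels, these were 0.289 ± 0.153 CPM in ctrl and 5.55 ± 1.84 CPM in FL1 in estrus, and 0.154 ± 0.344 CPM in ctrl and 1.2 ± 0.899 CPM in FL1 in diestrus. Every FL1 library in estrus lay above every library of the other 3 groups, whereas the FL1 libraries in diestrus overlapped the ctrl libraries of both stages.

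The ratio of summed *Chil3* counts, scaled for library size, was 20.4 between FL1 and ctrl in estrus (exact 95% interval 10.9 to 43.1) and 8.73 in diestrus (3.44 to 28.3), where the intervals cover counting error only and not the spread between mice. All 5 ctrl counts in diestrus came from replicate 5. Without this library, left out after its counts were seen, ctrl had 0 counts. Against the 3 counts that a count of 0 allows over the remaining 4 libraries, the ratio was 12.0. This takes the 40 FL1 counts as exact and leaves out the spread between mice, so it is not a lower bound. In the gene-wide fit *Chil3* had log2FC 4.27, SE 0.43 in estrus, a description only, as it passed the filter on counts through its FL1 libraries alone, and it was too low for the filter in diestrus. The gene copies *Chil4* and *Gm6522* had 0 counts in all libraries.

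*Cd14* encodes the co-receptor for bacterial lipopolysaccharide, and *Cd163* the receptor by which macrophages take up haemoglobin bound to haptoglobin. *Cd14* was at 2.82 to 5.51 CPM in ctrl and 3.91 to 6.75 CPM in FL1 in estrus, and at 2.61 to 7.68 CPM in ctrl and 2.01 to 5.64 CPM in FL1 in diestrus. The ranges overlapped in both stages, and *Cd14* passed in neither (estrus log2FC 0.15, SE 0.27, adjusted p = 0.841, and diestrus log2FC -0.45, SE 0.34, adjusted p = 0.547). *Cd163* had at most 21 counts in a library and group means of 0.558 to 0.922 CPM, and was left out by the filter on counts in all comparisons.

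**Figure D1:**
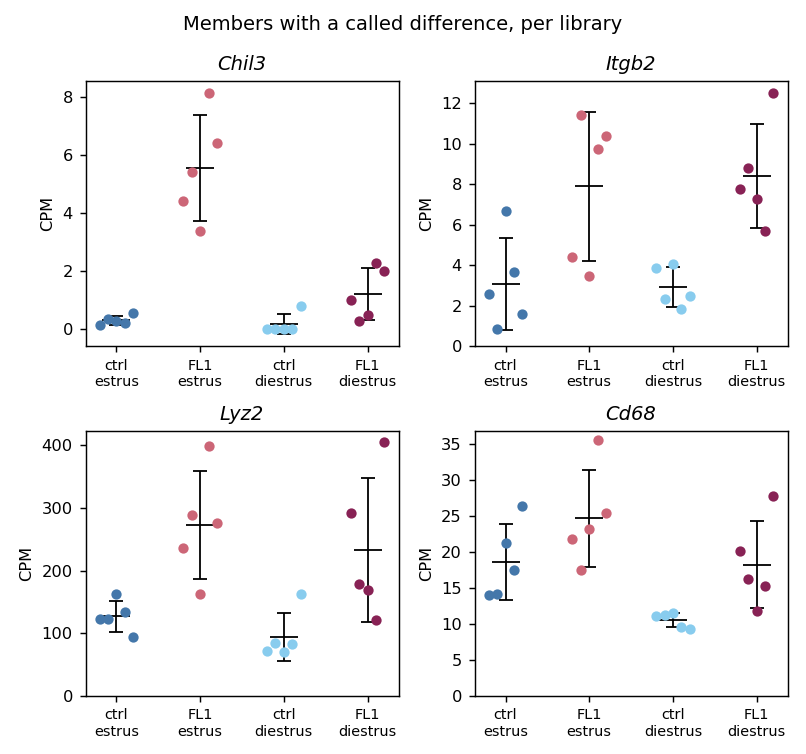
Level in CPM of *Chil3*, *Itgb2*, *Lyz2* and *Cd68* in each library, by line and stage, with the group mean and SD (n = 5). The FL1 libraries in estrus lie above the ctrl ones for *Chil3*, the FL1 libraries in diestrus above the ctrl ones for *Itgb2* and *Cd68*, and *Lyz2* overlaps by 1 pair of libraries in each stage.

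**Figure D2:**
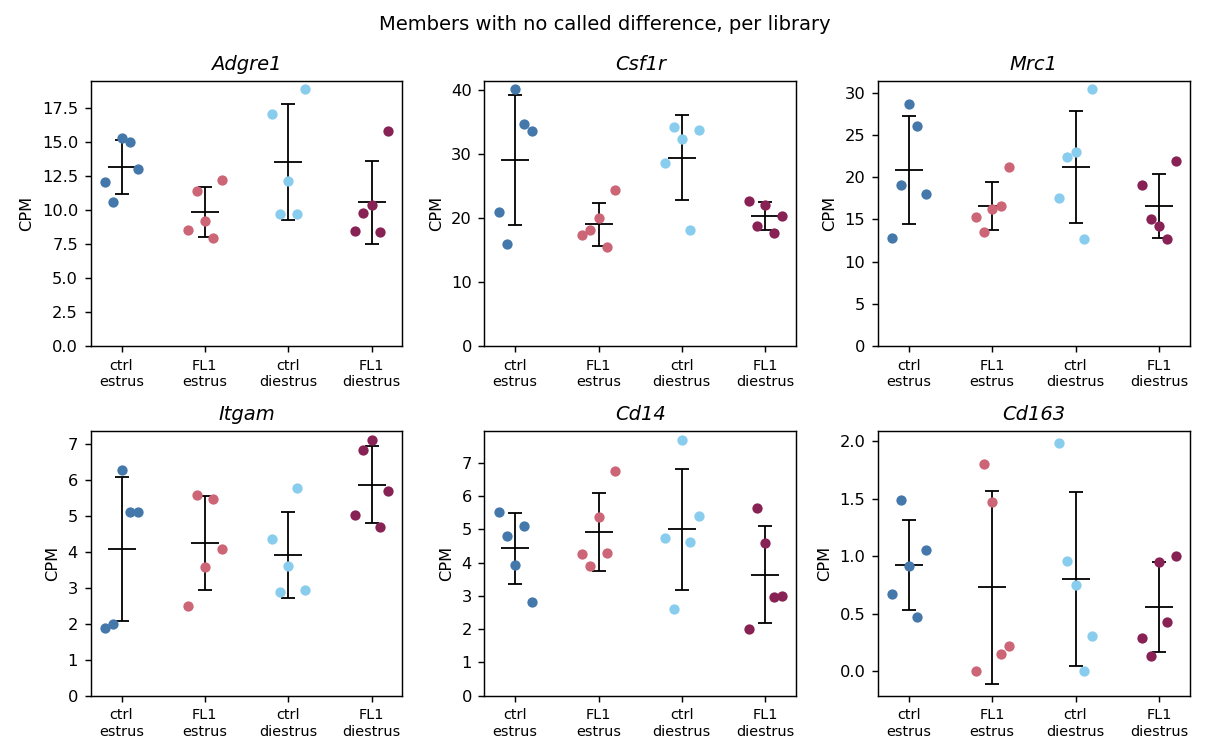
Level in CPM of *Adgre1*, *Csf1r*, *Mrc1*, *Itgam*, *Cd14* and *Cd163* in each library, by line and stage, with the group mean and SD (n = 5). The groups overlap for each of these 6 genes, and *Cd163* stays under 2 CPM in all libraries.

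In number, 2 of the 9 members tested were called between the lines in estrus (*Chil3* and *Lyz2*), beside 2.33% of all genes tested, and 3 of 8 in diestrus (*Cd68*, *Itgb2* and *Lyz2*), beside 4.11%. Groups did not overlap for 1 of 9 members in estrus, beside 4.88% of all genes, and for 2 of 8 in diestrus, beside 5.45%. As these contrasts bore on how the members were chosen, with *Chil3* and *Itgb2* singled out on their values, nothing is read from the shares. Members had a median log2FC of 0.15 in estrus and 0.11 in diestrus, and all genes tested -0.01 in each. The 4 pan-macrophage genes had medians of -0.38 in estrus and -0.36 in diestrus, with *Cd68* as the exception in sign.

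**Figure D3:**
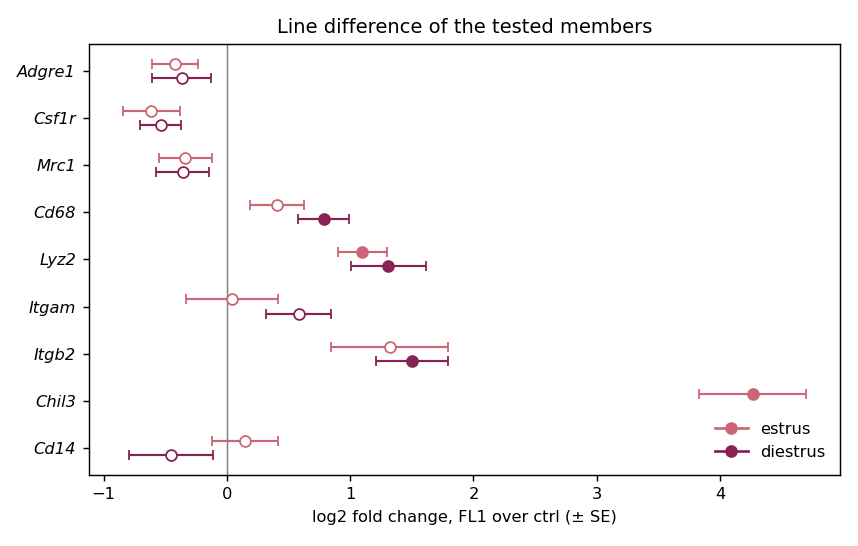
Line difference (log2FC, FL1 over ctrl, with SE) of the members tested in estrus (9) and diestrus (8), 5 libraries per line. Filled points are called at an adjusted p of at most 0.05 and open points are not. *Itgb2*, *Lyz2* and *Cd68* lie right of 0 and *Adgre1*, *Csf1r* and *Mrc1* left of 0 in both stages, and *Chil3*, tested in estrus only, lies at 4.27.

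Set against the pan-macrophage genes, *Chil3*, *Itgb2* and *Lyz2* took different positions in the lines. These positions were not tested, and *Chil3* and *Itgb2* had been set apart on measured values. The mean log2 CPM of the 4 pan-macrophage genes was 4.27 ± 0.35 in ctrl and 4.06 ± 0.17 in FL1 in estrus, and 4.10 ± 0.28 in ctrl and 3.99 ± 0.27 in FL1 in diestrus. On the log2 scale with a prior count of 2, *Itgb2* lay 2.81 ± 0.81 below this mean in ctrl and 1.18 ± 0.73 below it in FL1 in estrus. In diestrus it lay 2.48 ± 0.38 below in ctrl and 0.92 ± 0.19 below in FL1, without overlap. *Lyz2* stood above the mean by 2.70 ± 0.39 in ctrl and 3.97 ± 0.49 in FL1 in estrus, and by 2.39 ± 0.44 and 3.75 ± 0.43 in diestrus. For *Chil3*, the difference was -5.15 ± 0.45 in ctrl and -1.58 ± 0.43 in FL1 in estrus, and -5.59 ± 0.74 and -3.68 ± 0.93 in diestrus, where the prior count sets the ctrl values. These differences between genes are within a library and are not scaled for transcript length, as 3' reads do not grow with length.

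A list of 20 other genes of macrophages was measured alongside, among them Fc receptors, lysosomal proteases and adaptor proteins, and all 20 were tested. In estrus, 2 genes were called higher in FL1 and 1 lower, beside 2.33% of all genes tested in either direction, with a median log2FC of 0.15. In diestrus 7 were called higher and 1 lower, beside 4.11%, and the median was 0.43. *Gpnmb*, which encodes a glycoprotein of lipid-laden phagocytes, was at 7.25 to 14.0 CPM in ctrl and 24.8 to 142 CPM in FL1 in estrus (log2FC 2.66, SE 0.39, adjusted p = 0.00179). In diestrus it was at 7.98 to 17.4 CPM in ctrl and 24.7 to 153 CPM in FL1 (log2FC 2.30, SE 0.47, adjusted p = 0.0123), a call lost with limma-voom (adjusted p = 0.0804). *Ctss*, a lysosomal protease of antigen-presenting cells, was higher in FL1 in estrus (log2FC 1.08, SE 0.22, adjusted p = 0.0219) and diestrus (log2FC 1.41, SE 0.23, adjusted p = 0.00311), without overlap in either stage. The estrus call of *Ctss* was lost without ctrl replicate 1 or 2 or FL1 replicate 2 or 5 (adjusted p 0.0503 to 0.0612).

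The other called genes of this list passed in 1 stage each. *Fcgr2b*, an inhibitory Fc receptor, was at 5.62 ± 2.16 CPM in ctrl and 16.6 ± 3.59 CPM in FL1 in diestrus (log2FC 1.56, SE 0.25, adjusted p = 0.00296). *Cd84*, a leucocyte adhesion receptor, was higher in FL1 in diestrus too (log2FC 1.34, SE 0.34, adjusted p = 0.0400), and this call was lost in 8 of 10 fits that left out a library. *Mpeg1*, a pore-forming protein of phagocytes, *Tyrobp*, a signalling adaptor, and *Laptm5*, a lysosomal membrane protein, had a log2FC of 0.88, 0.82 and 0.63 in diestrus and are named after their values were seen. *Lgmn*, the protease that was most abundant in the list, was lower in FL1 in diestrus (log2FC -0.77, SE 0.20, adjusted p = 0.0455), and *Cx3cr1*, the fractalkine receptor, was lower in FL1 in estrus (log2FC -0.85, SE 0.20, adjusted p = 0.0386). The *Tyrobp*, *Lgmn*, *Cx3cr1* and *Laptm5* calls were lost in 7, 9, 7 and 2 of 10 fits without a library. In the fit of all 20 libraries the *Lgmn*, *Laptm5* and *Cd84* calls were lost (adjusted p = 0.102, 0.0548 and 0.0852).

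**Figure D4:**
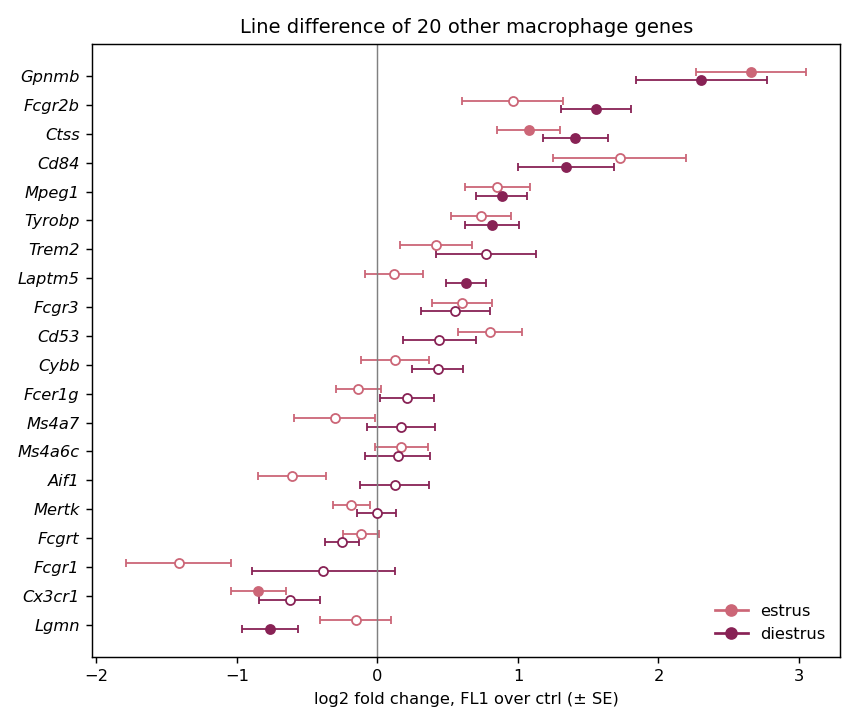
Line difference (log2FC, FL1 over ctrl, with SE) of the 20 other macrophage genes in estrus and diestrus, 5 libraries per line, ordered by the diestrus value. Filled points are called, 3 in estrus and 8 in diestrus. *Gpnmb* lies farthest to the right, with 2.66 in estrus and 2.30 in diestrus.

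Ligands, receptors and regulators of the lineage gave 1 call between the lines, beside 2.33% of all genes tested in estrus and 4.11% in diestrus. Nothing is read from this count. Of 8 genes of the CSF axis 5 were tested, and only *Csf2rb2*, a cytokine receptor chain, was called, in estrus (log2FC 1.25, SE 0.31, adjusted p = 0.0485). This call was lost in 9 of 10 fits without a library, with limma-voom (adjusted p = 0.0510) and in the fit of all 20 libraries (adjusted p = 0.173). *Csf2ra*, the most abundant of them, did not pass (estrus log2FC 0.71, SE 0.21, adjusted p = 0.101), and *Csf2* and *Csf3* had 0 counts in all libraries. None of 8 transcription factors of myeloid cells was called in either stage, with *Maf* as the most abundant (diestrus log2FC -0.37, SE 0.16, adjusted p = 0.242).

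No gene of the lists that mark states of macrophages was called between the lines in either stage. Of all genes tested, 2.33% were called in estrus and 4.11% in diestrus, and nothing is read from lists of this size without a call. Of 12 genes of tissue-resident macrophages 8 were tested in estrus and 7 in diestrus, with a median log2FC of -0.01 and -0.10, and *Gas6*, the ligand of clearance receptors, was the most abundant (estrus log2FC 0.36, SE 0.34, adjusted p = 0.671). Of 12 genes of alternative activation 8 were tested in estrus and 6 in diestrus, with a median of 0.47 and -0.15, and *Socs2* was the most abundant (estrus log2FC 0.25, SE 0.15, adjusted p = 0.461). Of 6 chitinase family genes besides *Chil3* none passed the filter, *Chil1* was the most abundant with group means of 0.0378 to 0.649 CPM, and *Chil4*, *Chil6* and *Chia1* had 0 counts.

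Partners of the members gave 1 call between the lines, beside 2.33% of all genes tested in estrus and 4.11% in diestrus, and nothing is read from this count. Of 9 partners of the *Itgb2* integrins 7 were tested in estrus and 8 in diestrus, and none was called, with medians of 0.21 and 0.13 and *Rap1b*, a GTPase of integrin activation, as the most abundant (log2FC 0.01, SE 0.10, adjusted p = 0.988 in estrus). Of 6 genes around *Cd14* in lipopolysaccharide sensing 5 were tested, and *Lbp*, the binding protein, was lower in FL1 in estrus (log2FC -1.12, SE 0.27, adjusted p = 0.0424), a call lost in 8 of 10 fits without a library and with limma-voom (adjusted p = 0.0832). The most abundant of these genes was the adaptor *Myd88* (log2FC 0.14, SE 0.12, adjusted p = 0.622 in estrus). Of 6 genes of haemoglobin clearance, which *Cd163* serves, none was called between the lines, and the most abundant was *Lrp1* (log2FC -0.26, SE 0.17, adjusted p = 0.491 in estrus).

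Markers of other cells that could carry these transcripts were given the same look. In estrus, 12 neutrophil genes summed to 6.41 to 18.1 CPM (median 11.3) in ctrl and 12.1 to 23.7 CPM (median 19.2) in FL1. In diestrus they summed to 4.25 to 9.03 CPM (median 6.78) in ctrl and 4.06 to 9.46 CPM (median 7.80) in FL1. Of these genes, *Ly6g* and *Elane* had 0 counts in all libraries. Of 3 neutrophil genes tested in estrus and 2 in diestrus none was called, beside 2.33% and 4.11% of all genes. All 3 had a positive log2FC in estrus (median 0.76), against 1 of 2 in diestrus (median 0.10). *Lcn2*, the most abundant, had a log2FC of 0.76 (SE 0.36) in estrus and -0.85 (SE 0.35) in diestrus. In estrus, 7 monocyte genes summed to 183 to 286 CPM (median 218) in ctrl and 191 to 294 CPM (median 281) in FL1. In diestrus they summed to 104 to 150 CPM (median 133) in ctrl and 118 to 147 CPM (median 128) in FL1. The most abundant was *Vcan*, which granulosa cells make as well, so that the sum is not a measure of monocytes alone. *Fcnb* had 0 counts in all libraries. Only 3 of the 7 were tested in each stage, and none was called between the lines. The part of these cells in the differences of *Lyz2*, *Itgb2* and *Chil3* was not tested.

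Of leucocyte genes in general and of other leucocytes, sums per library overlapped between the lines. A sum of 5 genes shared by all leucocytes was 41.8 to 61.8 CPM in ctrl and 43.5 to 69.6 CPM in FL1 in estrus, and 36.3 to 62.4 CPM and 41.0 to 59.9 CPM in diestrus. Dendritic cell genes (8) summed to 24.2 to 31.3 CPM in ctrl and 24.7 to 31.7 CPM in FL1 in estrus, and to 20.03 to 32.2 CPM and 26.4 to 35.3 CPM in diestrus. Mast cell genes (5) summed to 0 to 5.36 CPM in ctrl and 1.5 to 8.43 CPM in FL1 in estrus, and to 0 to 1.5 CPM (median 0.924) in ctrl and 1.34 to 8.78 CPM (median 3.40) in FL1 in diestrus, higher in the median of FL1 in both stages, and in diestrus none of the 5 passed the filter on counts. Eosinophil genes (6) summed to 0 to 0.660 CPM in ctrl and 0.148 to 1.33 CPM in FL1 in estrus, and to 0 to 0.602 CPM and 0.142 to 1.26 CPM in diestrus. The part of these cells in the line differences of the members was not tested. Lymphocyte genes (10) reached at most 11.5 CPM in a library. The most abundant of each list were *Arhgdib* for leucocytes, *Zbtb46* for dendritic cells, *Tpsb2* for mast cells, *Nkg7* for lymphocytes and *Ear6* for eosinophils, and none of the genes tested in these lists was called between the lines. Oviduct genes (5, *Krt7* the most abundant) summed to 5.82 to 36.1 CPM, fat genes (5, *Plin1*) to 19.0 to 109 CPM and oocyte genes (7, *Gdf9*) to 156 to 528 CPM per library, again with none called between the lines. As 2.33% of all genes tested were called in estrus and 4.11% in diestrus, nothing is read from the absence of calls in these lists.

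Between the stages, the question was whether the markers change over the cycle within a line. In ctrl, 1 of 8 members tested was called, beside 2.85% of all genes, and 1 of 8 did not overlap, beside 4.51%. This was *Cd68*, higher in estrus in all 25 pairs of libraries (log2FC 0.82, SE 0.20, adjusted p = 0.0437). The call was lost in 8 of 10 fits without a library (adjusted p 0.0543 to 0.112). *Lyz2* was not called (log2FC 0.43, SE 0.22, adjusted p = 0.384), but passed without ctrl replicate 5 of diestrus (log2FC 0.71, adjusted p = 0.0248), which stood at 162 CPM above the other 4 libraries.

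In FL1, 1 of 9 members tested was called between the stages, beside 15.9% of all genes, and 1 of 9 did not overlap, beside 12.2%. This was *Chil3* (log2FC 2.20, SE 0.46), singled out on its values, and nothing is read from the count. Its summed counts were 4.63 times higher in estrus (exact 95% interval 3.29 to 6.67, counting error only). In ctrl the same ratio was 1.98 (0.617 to 7.39). *Cd68* had log2FC 0.44, SE 0.22, adjusted p = 0.184 and passed only without FL1 replicate 5 of diestrus (log2FC 0.64, adjusted p = 0.0482). *Adgre1*, *Csf1r* and *Mrc1* had log2FC of -0.09, -0.09 and 0.01 with SE of 0.21, 0.14 and 0.18 in FL1, and of -0.04, -0.02 and -0.02 with SE of 0.22, 0.24 and 0.25 in ctrl.

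Ordered by level, *Chil3* ran from FL1 in estrus over FL1 in diestrus and ctrl in estrus to ctrl in diestrus. Only the first step of this order exceeded the spread of the libraries. *Itgb2* ran from FL1 in diestrus over FL1 in estrus and ctrl in estrus to ctrl in diestrus, and each pair of neighbours overlapped. *Lyz2* ran from FL1 in estrus over FL1 in diestrus and ctrl in estrus to ctrl in diestrus, again with overlap of neighbours.

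In FL1, genes of the lists around the members were called between the stages as well, beside the same 15.9% of all genes tested. The resident macrophage genes *Folr2*, the folate receptor (log2FC 1.84, SE 0.37, adjusted p = 0.00279), *F13a1*, a coagulation factor chain (log2FC 1.41, SE 0.21, adjusted p = 0.000246), and *Pf4*, a chemokine (log2FC 0.62, SE 0.19, adjusted p = 0.0366), were higher in estrus, 3 of 8 tested. The *Pf4* call was lost in 7 of 10 fits without a library and in the fit of all 20 libraries (adjusted p = 0.168). Among the genes of alternative activation, *Arg1*, the arginine-degrading enzyme (log2FC 2.24, SE 0.53, adjusted p = 0.00884), and *Il4ra*, the receptor chain for IL-4 and IL-13 (log2FC 0.88, SE 0.17, adjusted p = 0.00245), were higher in estrus, 2 of 8 tested. *Arg1* was at 0.945 to 12.4 CPM in estrus and 0.655 to 2.00 CPM in diestrus, and was lost with limma-voom (adjusted p = 0.0578), while *Il4ra* was lost in the fit of all 20 libraries (adjusted p = 0.0684).

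Single genes of the remaining myeloid lists passed in FL1, beside 15.9% of all genes tested. They were 1 of 8 transcription factors, 1 of 5 CSF axis genes and 1 of 20 other macrophage genes tested. Of haemoglobin clearance genes 2 of 5 passed, and of integrin partners 1 of 7. Nothing is read from these counts. The transcription factor gene *Runx1* (log2FC 1.12, SE 0.10, adjusted p = 2.63e-06), the CSF1 receptor ligand *Il34* (log2FC 0.76, SE 0.21, adjusted p = 0.0214), the antibody-recycling receptor *Fcgrt* (log2FC 0.59, SE 0.11, adjusted p = 0.00155), the iron exporter *Slc40a1* (log2FC 0.59, SE 0.12, adjusted p = 0.00240) and the scavenger receptor *Lrp1* (log2FC 0.40, SE 0.10, adjusted p = 0.0133) were higher in estrus. The adhesion ligand *Icam2* was lower in estrus (log2FC -0.69, SE 0.16, adjusted p = 0.00878). The *Il34* call was lost in 3 of 10 fits without a library, and the *Il34* and *Lrp1* calls in the fit of all 20 libraries (adjusted p = 0.0519 and 0.149). In ctrl, beside 2.85% of all genes tested, the monocyte matrix gene *Vcan* was the only called gene of these lists (log2FC 1.09, SE 0.13, adjusted p = 0.000725). It was 1 of 3 monocyte genes tested and was called in FL1 as well (log2FC 1.08, SE 0.17, adjusted p = 0.000456). Granulosa cells make *Vcan* too, and which cells of the ovary carried the differences of these genes was not tested.

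Other cells differed between the stages at the same time. In FL1, 4 of 4 red blood cell genes, 6 of 7 luteal genes, 4 of 5 endothelial genes and 3 of 6 granulosa genes tested were called lower in estrus, beside 15.9% of all genes in either direction. The lowest log2FC in the red blood cell list were -1.24 for *Hbb-bt*, -1.07 for *Hbb-bs*, -0.91 for *Hba-a1* and -0.85 for *Alas2*, and the last 2 calls were lost in 5 and 6 of 10 fits without a library and in the fit of all 20 libraries (adjusted p = 0.140 and 0.138). *Hba-a1* was also lost with DESeq2 (adjusted p = 0.0530) and *Alas2* with limma-voom (adjusted p = 0.0529). In the luteal list they were -2.64 for *Lhcgr*, the receptor for luteinizing hormone, -1.56 for *Star*, -1.40 for *Prlr* and -0.86 for *Ptgfr*, with *Akr1c18* as the most abundant. In the endothelial list they were -0.79 for *Kdr*, -0.75 for *Pecam1*, -0.69 for *Egfl7* and -0.59 for *Cdh5*. In the granulosa list they were -1.38 for *Cyp19a1*, -0.81 for *Inhba* and -0.55 for *Foxl2*, with *Inha* as the most abundant, and *Inhba* was lost in 3 of 10 fits without a library and in the fit of all 20 (adjusted p = 0.106). The neutrophil gene *Lcn2*, also made by epithelia, was higher in estrus in FL1 (log2FC 2.03, SE 0.34, adjusted p = 0.000596), as were *Plac8* of the monocyte list (log2FC 1.06, SE 0.15, adjusted p = 0.000174), the leucocyte gene *Arhgdib* (log2FC 0.74, SE 0.21, adjusted p = 0.0240), the oviduct gene *Krt7* (log2FC 1.47, SE 0.28, adjusted p = 0.00161) and the oocyte gene *Bmp15* (log2FC 0.81, SE 0.24, adjusted p = 0.0279). The *Arhgdib* and *Bmp15* calls were each lost in 5 of 10 fits without a library, and *Bmp15* with limma-voom (adjusted p = 0.0633) and in the fit of all 20 libraries (adjusted p = 0.0758). In ctrl, *Lhcgr* (log2FC -1.75, SE 0.34, adjusted p = 0.0161) and the granulosa gene *Inhba* (log2FC -1.5, SE 0.34, adjusted p = 0.0336) were lower in estrus, the latter lost in 5 of 10 fits without a library. They were 1 of 7 luteal and 1 of 6 granulosa genes tested, beside 2.85% of all genes. Between the lines, *Lhcgr* (log2FC 1.43, SE 0.32, adjusted p = 0.0209), the granulosa factor *Foxl2* (log2FC 0.53, SE 0.11, adjusted p = 0.0132) and the endothelial gene *Egfl7* (log2FC 0.65, SE 0.11, adjusted p = 0.00528) were higher in FL1 in diestrus. They were 1 of 7 luteal, 1 of 6 granulosa and 1 of 5 endothelial genes tested, beside 4.11% of all genes. *Lhcgr* was lost in 3 of 10 fits without a library and *Foxl2* in the fit of all 20 (adjusted p = 0.0562). The part of the tissue's make-up in the stage and line differences of the members was not tested.

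Whether the line difference changed with the stage was tested over all 20 libraries. None of the 9 members tested was called, beside 0.0565% of all genes, in edgeR, DESeq2 or limma-voom, and none had an unadjusted p under 0.05 in edgeR. *Chil3* had log2FC 1.30, SE 1.32, *Itgb2* log2FC -0.18, SE 0.58, *Lyz2* log2FC -0.21, SE 0.40, adjusted p = 0.879 and *Cd68* log2FC -0.38, SE 0.31, adjusted p = 0.666. The *Chil3* value turned to -1.91 without ctrl replicate 5 of diestrus. The stage-bound calls between the lines are thus not shown to differ between the stages.

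Within the libraries, the levels of the other members were set against *Adgre1* in log2 CPM, with 9 relations, permutation tests with 100000 draws and Benjamini-Hochberg adjustment over the 9. Over the 20 libraries, *Csf1r* rose with *Adgre1* (Pearson r = 0.66, adjusted p = 0.0159, Spearman rho = 0.65, adjusted p = 0.0216), as did *Mrc1* (r = 0.63, adjusted p = 0.0159, rho = 0.58, adjusted p = 0.0414). Without ctrl replicates 1 and 5 of diestrus, the farthest from the *Adgre1* median, r was 0.61 and 0.59. As deviations from the group means, r was 0.49 for *Csf1r* (adjusted p = 0.0848) and 0.53 for *Mrc1* (adjusted p = 0.0719), so that the relation was no longer past the threshold within groups. These deviations were permuted over all 20 libraries and not within each group.

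*Lyz2*, *Cd68*, *Cd163*, *Cd14* and *Itgam* gave no relation with *Adgre1* past the threshold over the 20 libraries. *Chil3* and *Itgb2* were set against the pan-macrophage genes on measured values, so their r is a description without a p-value. The r was -0.09 for *Itgb2* (rho = -0.09), -0.19 for *Lyz2* (adjusted p = 0.552, rho = -0.18, adjusted p = 0.640), -0.34 for *Chil3* (rho = -0.33) and -0.22 for *Cd68* (adjusted p = 0.533, rho = -0.16, adjusted p = 0.640). These r take in the differences between the groups. Within groups all 4 had a positive r, of 0.55, 0.45, 0.34 and 0.17, with adjusted p of 0.108 for *Lyz2* and 0.477 for *Cd68*. *Cd163* (r = 0.38), *Cd14* (r = 0.24) and *Itgam* (r = 0.01) had adjusted p of 0.285, 0.533 and 0.979.

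**Figure D5:**
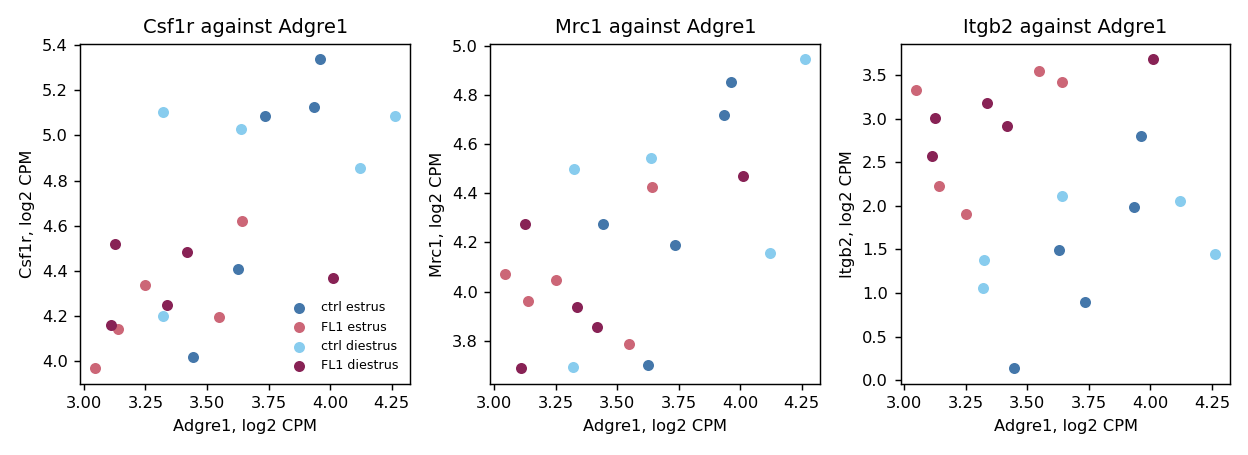
Level of *Csf1r*, *Mrc1* and *Itgb2* against *Adgre1* in log2 CPM (prior count 2) in 20 libraries, coloured by line and stage. *Csf1r* (r = 0.66) and *Mrc1* (r = 0.63) rise with *Adgre1* over all libraries, while for *Itgb2* (r = -0.09) the FL1 libraries lie above most ctrl libraries.

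The genes most alike to 3 members in log2 CPM over the 20 libraries were sought among 9569 to 14153 genes, as a description of libraries that share line and stage. *Chil3* ran closest with the chemokine gene *Ccl6* (r = 0.90), the iron reductase gene *Cybrd1* (r = 0.89), *Defb36* (0.84), *Exosc9* (0.84) and *Dusp23* (0.83). *Itgb2* ran closest with *Ctss* (r = 0.81), *Laptm5* (0.81), *Fam199x* (0.80), *Pop4* (0.80) and *Gpnmb* (0.79), of which *Ctss*, *Laptm5* and *Gpnmb* are in the list of other macrophage genes. *Adgre1* ran closest with *Tmem220* (r = 0.73), *Zfhx4* (0.71), *Ankib1* (0.69), *Abhd2* (0.69) and *Lsm12* (0.68).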

How the data were processed

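The authors prepared 3' mRNA-Seq libraries of 20 ovaries with the QuantSeq forward kit, aligned the trimmed reads to GRCm38 with STAR and deposited raw counts per Ensembl gene, 1 table per library, without normalization, filters or pooling. The submitters' processing notes name STAR and Cuffdiff without versions, and the counting tool, its strand setting and the use of molecular identifiers are not given in the sources used here. A read from a sequence shared by several genes can be lost or misplaced, so copies were sought by 31-nt words shared in the last 300 nt of transcripts (at least 50 words). Groups came from the titles, since the labelled source name is FL1 even for ctrl libraries.

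From the deposited counts, gene symbols came from GENCODE M21, which holds 54809 of the 54838 genes. Differences were tested with edgeR 4.0.16 in R 4.3.3 (quasi-likelihood F test, TMM, filterByExpr with a minimum count of 10) in the 10 libraries of each stage or line, and the interaction in all 20, with Benjamini-Hochberg adjustment over all genes tested. SE is the absolute log2FC over the square root of F. Libraries are different mice. CPM used TMM over all 20 libraries, and log2 CPM a prior count of 2. Alternatives were DESeq2 1.42.0, limma-voom 3.58.1 with sample weights, RLE, other filters, a replicate block, 1 fit of all libraries, leaving out each library and, chosen after seeing the data, adding the counts of copies. On simulated counts in the estrus design with a log2FC of 1.5 in 200 of 13160 genes, edgeR recovered 82.5% of them with 8 other calls.

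Totals of 5991223 to 10352718 counts limit precision for genes under about 1 CPM. The members and the 25 lists, members included, were chosen with earlier results of these data known. Named are the 10 members, of each list the most abundant gene and at most 4 called genes with the largest log2FC per comparison, and the 5 genes most alike to *Adgre1* and *Itgb2* (mean of at least 10 CPM) and to *Chil3* (past the filter). Other genes, such as *Mpeg1*, *Tyrobp*, *Laptm5*, further called genes and list genes at 0 counts, were named after their values were seen.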

Additional observations from a re-analysis of the deposited data

Results flagged for a closer look

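In groups of 5 libraries, the gap between an extreme library and its nearest neighbour was set against the range of the group, and 3 of 40 groups passed the critical ratio of 0.71. For normally distributed values chance alone passes about 1 in 20 groups, which need not hold for low counts. *Adgre1* in FL1 replicate 5 in diestrus reached 15.9 CPM, and the other 4 libraries lay at 8.37 to 10.4 CPM. *Chil3* in ctrl replicate 5 in diestrus reached 0.770 CPM, which is 5 counts, and the other 4 libraries had none. *Lyz2* in the same ctrl library reached 162 CPM, and the others lay at 70.3 to 85.0 CPM.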

How the results depend on the processing

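The number of members called was within 1.5 times of the main count under RLE, DESeq2, limma-voom, no filter, 1 fit of all libraries and added copies in the comparisons run. With at least 10 counts in every library, it fell from 2 to 1 in estrus (*Lyz2*) and from 1 to 0 between stages in FL1, as *Chil3* was then not tested. Without single libraries it was 1 to 3 between the lines in diestrus, 0 to 1 between the stages in ctrl and 1 to 2 in FL1. Same-numbered libraries did not deviate together (correlations -0.0953 to 0.126, 1 of 20 pairs over 0.1), so that the numbers do not pair the mice, and with the replicate block the count in ctrl between stages was 0. The block also took the *Cd68* call between the lines in diestrus (log2FC 0.74, adjusted p = 0.0949).

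Over all genes, calls moved by more than 1.5 times with DESeq2 from 311 to 670 between the lines in estrus, from 545 to 891 in diestrus, from 380 to 771 between the stages in ctrl and from 8 to 148 in the interaction. With limma-voom they were 655 in ctrl and 31 in the interaction. Without a filter they were 477 in estrus, 846 in diestrus and 17 in the interaction, with 1 fit of all libraries 531 in estrus and 909 in ctrl, and with the replicate block 12 in the interaction.

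None of the log2FC that changed sign was called, and the cause was not tested. Between the stages in ctrl, limma-voom gave 0.094 for *Adgre1*, 0.075 for *Cd14*, -0.10 for *Itgam*, -0.000686 for *Itgb2* and 0.033 for *Mrc1*, and the replicate block -0.044 for *Itgam* and -0.11 for *Itgb2*. In the interaction the block gave -0.016 for *Mrc1*. Without single libraries, *Itgam* ranged from -0.14 to 0.25 between the lines in estrus. Between the stages in ctrl, the ranges were -0.14 to 0.10 for *Adgre1*, -0.16 to 0.14 for *Csf1r*, -0.33 to 0.032 for *Cd14*, -0.14 to 0.25 for *Itgam*, -0.40 to 0.31 for *Itgb2* and -0.16 to 0.14 for *Mrc1*. Between the stages in FL1 they were -0.18 to 0.10 for *Adgre1*, -0.25 to 0.11 for *Itgb2* and -0.10 to 0.13 for *Mrc1*. In the interaction they were -0.20 to 0.13 for *Adgre1*, -0.23 to 0.071 for *Csf1r*, -0.41 to 0.29 for *Itgb2*, -1.91 to 1.71 for *Chil3*, -0.50 to 0.084 for *Lyz2* and -0.14 to 0.16 for *Mrc1*. As deviations from group means, the correlation with *Adgre1* turned to 0.17 for *Cd68*, 0.55 for *Itgb2*, 0.34 for *Chil3* and 0.45 for *Lyz2*. *Cd163* and *Chil3* in ctrl are limited by their counts.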
